A study of Rattus norvegicus with 10 samples.

Results

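The genes of the rat major histocompatibility complex (MHC) and their partners in antigen presentation were followed in the cerebral cortex. The set holds the rows of the deposited gene table whose name starts with RT1-, the rat name for the MHC, and the rows of B2m, Tap1, Tap2, Tapbp, Cd74, Ciita and Nlrc5. Of 38 such rows, 36 had a count in at least 1 library, out of 22311 rows with a count among 32623 in the table. RT1-Ha and RT1-Db2 were listed at 0 in all 10 libraries. By their descriptions, 21 of the 36 rows were class I, 8 were class II and 7 were the partners named above.

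The libraries were made from polyadenylated RNA of the cerebral cortex of adult male Sprague-Dawley rats, with 5 libraries in each group. In the EA group, electroacupuncture was given at the points GV20 and GV26 for 40 min at 3 mA with frequencies of 2 and 100 Hz. The control rats were only bound for 40 min. Rats of both groups were deeply anaesthetised with pentobarbital and perfused with saline before the cortex was taken, so no library came from an untouched animal. The tissue was whole cortex, in which fewer cells of a type and less RNA per cell cannot be told apart. The labels list each library as a separate sample without naming the animal, and p-values measure the spread between these samples, which may in part be technical.

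Class I molecules consist of a heavy chain, here an RT1 class I row, and the light chain beta-2 microglobulin from B2m. They carry peptides from inside the cell, which the transporter Tap1/Tap2 moves into the endoplasmic reticulum and tapasin (Tapbp) helps to load, to CD8 T cells. Class II molecules consist of an alpha and a beta chain, are guided by the invariant chain Cd74, are loaded with the help of the DM chains under the control of the DO chains, and present peptides to CD4 T cells. Nlrc5 and Ciita are the master activators of class I and class II transcription. In the healthy brain, class II is carried mainly by few microglia and by macrophages and dendritic cells at its borders, and class I is low in most neurons and higher in vessel cells and microglia.

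Total counts ranged from 55223193 to 61707722 in the control libraries and from 47843590 to 60941939 in the EA libraries. Neuronal markers summed to 1263 to 1376 FPKM (a level per transcript length and per mapped fragment) in control and 1087 to 1549.7 FPKM in EA libraries. Of the B cell markers reported here, Cd79a and Cd79b were at 0 in every library and Ms4a1 had no more than 8 counts in any library. Of 6 T cell markers, Cd3e, Cd3d, Cd3g, Cd8a and Cd2 had no more than 22, 9, 13, 9 and 23 counts in any library. The other T cell marker, Cd4, had 395 to 625 counts per library, at 5.397 ± 0.347 FPKM in control and 5.13 ± 1.37 FPKM in EA libraries (SD, n = 5 each), and in rats it is also known from microglia and macrophages. The 11 microglial markers, whose defining members were all detected in every library, summed to 246 to 259 FPKM in control and 213 to 273 FPKM in EA libraries.

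The members ran from B2m, among the abundant transcripts of the tissue, down to rows with a few counts in 1 library, as the plot of all 36 rows by library shows. B2m stood far above every heavy chain row and its group means differed by less than the spread between libraries. The class I rows summed to a higher level in control than in EA libraries. The class II rows were low, and 5 of the 8 did not reach the level required for testing. No member passed the threshold in the comparison of EA with control.

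**Figure D1:**
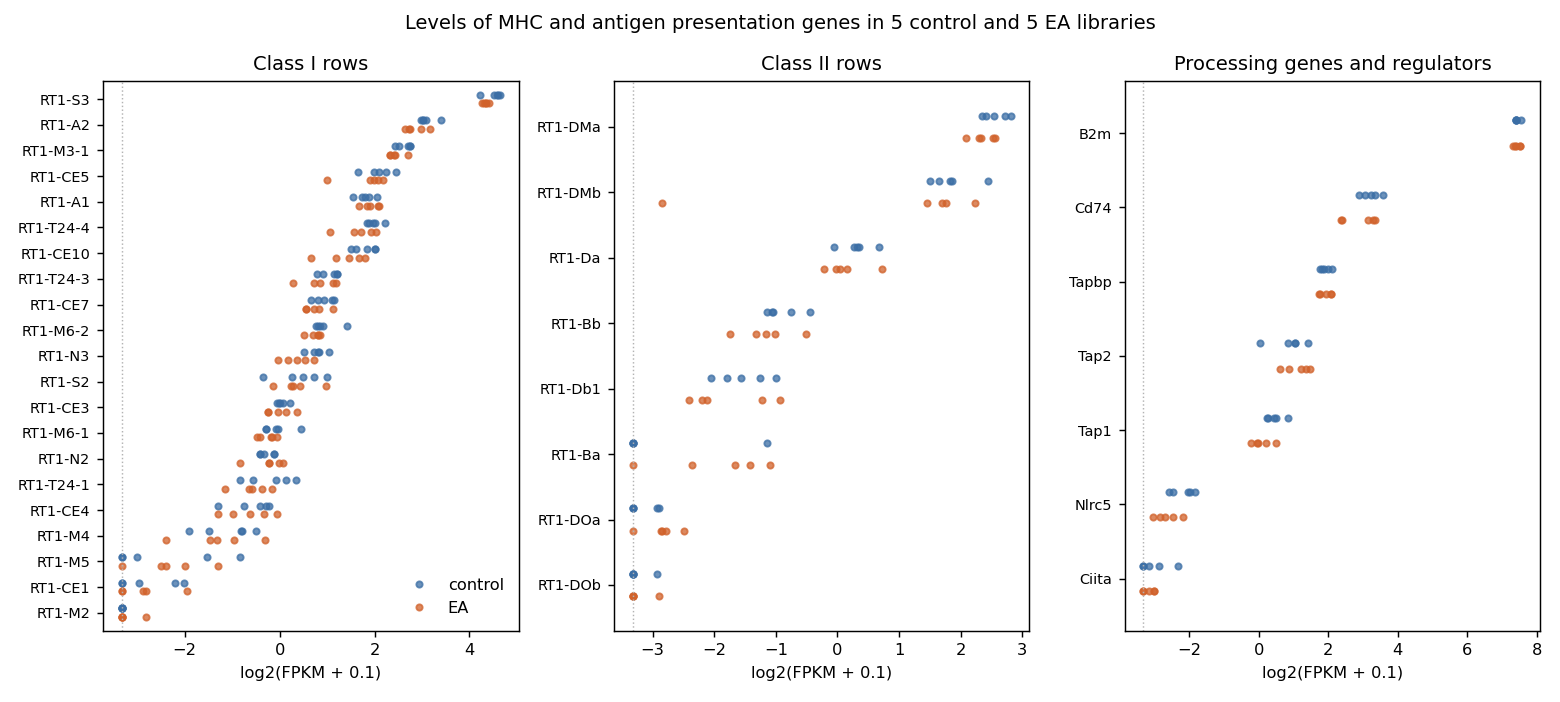
Level of each of the 36 rows in 5 control (blue) and 5 EA (orange) libraries, as log2(FPKM + 0.1), with 1 point per library, in panels for 21 class I rows, 8 class II rows and the 7 partners. The dotted line marks a value of 0, B2m is the highest row, and RT1-DMb in EA 3 stands apart from the other points of its row.

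B2m, the light chain shared by class I molecules (chr3:114087287-114093309 in Rnor_6.0, like all gene positions here), had 188, 168, 168, 167 and 169.7 FPKM in control libraries 1 to 5 and 161, 164, 182, 182 and 170.0 FPKM in EA libraries 1 to 5. The groups overlapped, with the highest value in control 1, and the means were 172 ± 8.78 FPKM in control and 172 ± 10.01 FPKM in EA libraries (SD, n = 5 each). The log2 fold change of EA against control was 0.02 (SE 0.06), with an adjusted p of 0.924 in edgeR's quasi-likelihood test, which ran over 15169 rows and is used for every fold change that follows.

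Among the heavy chains, RT1-S3 (chr20:3176107-3179818) was the row with the highest level and made up 35.02% of the mean class I sum. It had 18.6, 23.97, 24.8, 22.7 and 24.2 FPKM in control libraries 1 to 5 and 19.2, 20.2, 19.6, 21.2 and 20.4 FPKM in EA libraries 1 to 5. Control libraries 2 to 5 lay above every EA library, while control 1 lay below all of them. RT1-A2 (chr20:5374985-5378539), a row of the classical class I locus, followed with 8.08, 8.38, 10.5, 8.03 and 7.78 FPKM in control libraries 1 to 5 and 6.48, 7.84, 8.84, 6.65 and 6.11 FPKM in EA libraries 1 to 5. RT1-A2 was highest in control 3 and, among the EA libraries, in EA 3, and the groups overlapped. RT1-M3-1, named for the M3 locus of non-classical class I molecules that bind formylated peptides, had 6.402, 6.66, 5.64, 5.33 and 6.65 FPKM in control libraries 1 to 5 and 5.2, 5.27, 4.92, 6.46 and 4.93 FPKM in EA libraries 1 to 5. EA 4 lay within the control range and the other 4 EA libraries lay below it. The classical row RT1-A1 had 2.81, 3.24, 3.58, 3.403 and 4.02 FPKM in control libraries 1 to 5 and 4.12, 3.66, 3.46, 3.11 and 4.17 FPKM in EA libraries 1 to 5, with both ranges overlapping and a slightly higher mean in EA libraries.

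Of the other class I rows, RT1-CE5 was at 4.21 ± 0.867 FPKM in control and 3.596 ± 0.994 FPKM in EA libraries, RT1-T24-4 was at 3.88 ± 0.422 and 3.15 ± 0.773, and RT1-CE10 was at 3.41 ± 0.559 and 2.57 ± 0.755 (SD, n = 5 each). In RT1-CE5 the low library was EA 1, at 1.901 FPKM, and in RT1-T24-4 and RT1-CE10 it was EA 3, at 2.001 and 1.49 FPKM. The remaining tested class I rows, RT1-T24-3, RT1-CE7, RT1-M6-2, RT1-N3, RT1-S2, RT1-CE3, RT1-M6-1, RT1-N2, RT1-T24-1 and RT1-CE4, had mean levels over all libraries from 0.574 FPKM in RT1-CE4 to 1.86 FPKM in RT1-T24-3. RT1-M4, at 0.397 ± 0.181 FPKM in control and 0.355 ± 0.229 FPKM in EA libraries, was counted in every library but did not reach the level for testing.

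The annotation limits how far single class I rows can be told apart. In Rnor_6.0, 16 of the 36 rows overlapped another row with a count, 9 of them another member. RT1-CE1, RT1-CE4 and RT1-CE7 are annotated over 304902, 262230 and 202499 bases on the minus strand, overlapping RT1-CE5 and the heat shock gene Hspa1b, which had 770, 693, 852, 715 and 1073 counts in control libraries 1 to 5 and 9263, 1308, 5762, 2303 and 5460 in EA libraries 1 to 5. Hspa1b was higher in every EA library than in every control library, and whether reads of it entered the spanning class I rows was not tested. RT1-A1 spans RT1-A2, RT1-M6-1 overlaps RT1-M6-2, and RT1-S3, RT1-N3, RT1-N2, RT1-S2 and RT1-T24-4 lie opposite a row on the other strand. The library kit kept the strand, but whether the counting used it is not given in the sources used here, and reads that match several class I copies could have been split among them. The MHC genotypes of the rats are not given either, and all reads were aligned to Rnor_6.0. Whether the level or presence of a row differed with the genotype of the animal was not tested.

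Class I rows under other names, such as LOC103690108 at 8.74 FPKM in control libraries, are left out of the sum of the 21 class I rows. That sum gives a level that depends less on how reads were divided among the 21. It was 59.1, 67.1, 69.5, 65.5 and 66.9 FPKM in control libraries 1 to 5 and 54.7, 58.6, 54.7, 59.6 and 58.1 FPKM in EA libraries 1 to 5. Only control 1 lay within the range of the EA libraries, just below EA 4, and the means were 65.6 ± 3.95 and 57.1 ± 2.26 FPKM (SD, n = 5 each). The log2 ratio of the means was -0.20, beside a spread between libraries of a group of 0.0751 on the log2 scale; it is a description, and no test was made of a sum over chosen rows. With each library divided by its scaling factor (trimmed mean of M values, TMM), the sums were 60.1, 65.7, 69.1, 63.7 and 66.9 in control and 54.9, 59.1, 57.2, 59.1 and 57.4 in EA libraries, and the groups no longer overlapped. RT1-S3 made up 32.1% of the difference of -8.502 FPKM between the group means, RT1-A2 16.1% and RT1-CE10 9.86%, and 18 of the 21 rows had the lower mean in EA libraries.

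The summed markers of vessel cells and of red blood cells had lower medians in EA libraries, although no single marker passed the threshold. Lower medians of the sum were also found for oligodendrocytes (985 FPKM in control, 809 FPKM in EA libraries), microglia and dendritic cells. For neurons (1330 and 1305 FPKM) and perivascular macrophages (6.17 and 5.89 FPKM) most single markers did not follow the sum. Only 1 of 4 neuronal and 0 of 4 macrophage markers had a log2 fold change below 0, with medians of 0.03 and 0.20. The T cell sum (5.79 and 5.17 FPKM) was mostly Cd4, which is also known from microglia and macrophages. The median was higher in EA libraries for astrocytes (288 FPKM in control, 334 FPKM in EA libraries). For choroid plexus and meninges the medians were 11.6 and 11.7 FPKM, and the 2 tested markers had a median log2 fold change of -0.15. The B cell sum was near 0, with medians of 0.0479 and 0.118 FPKM, and no B cell marker reached the level for testing. The 5 measured endothelial markers summed to 59.5 to 75.9 FPKM in control and 54.3 to 58.3 FPKM in EA libraries, without overlap, and none of the 5 was at 0 in any library. Of these, Tie1 had a log2 fold change of -0.46 (SE 0.10, adjusted p = 0.172) and Flt1 of -0.22 (SE 0.08, adjusted p = 0.288), neither past the threshold. Slco1a4 had -0.25 (SE 0.15, adjusted p = 0.495), and its level was highest in control 1. Cdh5 and Tek had -0.03 (SE 0.09) and -0.07 (SE 0.10), both smaller than their SE, with adjusted p-values of 0.913 and 0.817. The lower sum was thus not shared evenly by the 5 markers, and the sum itself was not tested. Red blood cell markers summed to 7.68 to 43.01 FPKM in control and 6.29 to 15.9 FPKM in EA libraries, with 1 of the 4 at 0 in some libraries. The part of any of these cells in the class I sum was not tested.

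**Figure D2:**
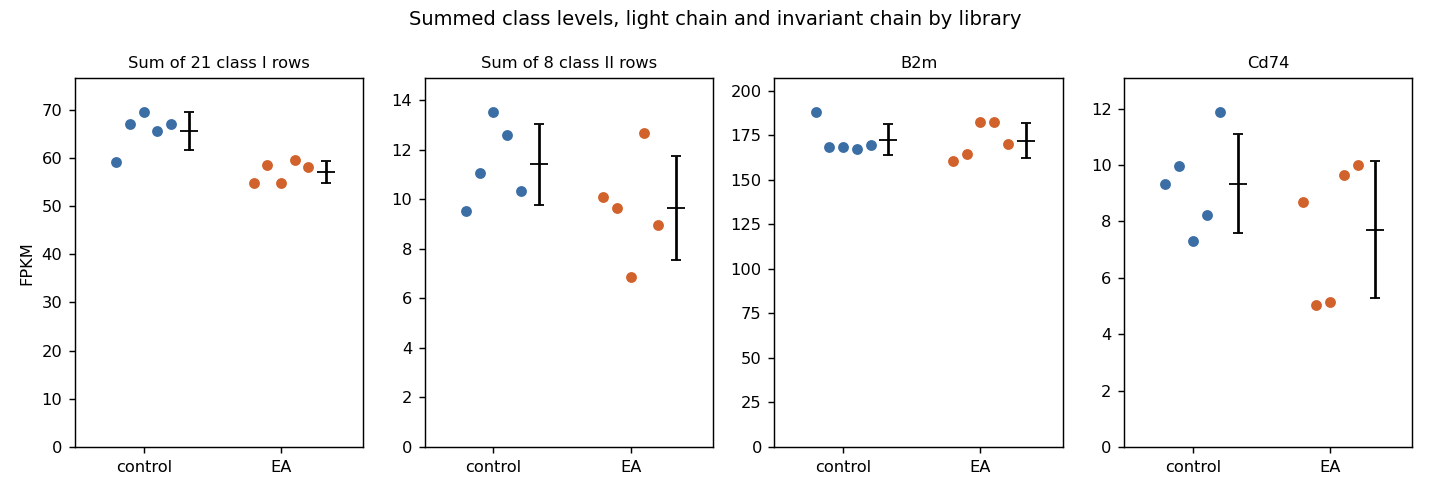
Summed FPKM of the 21 class I rows and of the 8 class II rows, and FPKM of B2m and Cd74, in each control and EA library (points), with the mean and SD of 5 libraries beside them (black). The class I sum is lower in EA libraries except for control 1 at 59.1 against EA 4 at 59.6 FPKM, and the other panels overlap widely.

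The comparison of EA with control asked which members changed with electroacupuncture beyond the spread between libraries. Of the 36 rows, 25 passed the level filter (0.5 FPKM or more in 5 or more libraries), 17 of them class I, 3 class II and 5 partners. In edgeR, 0 were called higher and 0 lower at an adjusted p under 0.05 with a fold above 1.2, where 0.0198% of all tested rows were called higher and 0% lower. DESeq2 called 0 of the 25, against 1.11% of all rows, and limma on log2(FPKM + 0.1) called 0, against 0.0132%. At an unadjusted p under 0.05, 3 of 25 were lower and 0 higher in edgeR, where 7.15% of all rows were lower and 6.59% higher. In counts scaled to library size, 0 members had every EA library above every control library, as 1.42% of all tested rows did, and 0 had every EA library below, as 1.62% did (3.04% in either direction).

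The direction was uneven among the members. The fold change was below 0 in 20 of the 25, with a median of -0.18 on the log2 scale, while 50.5% of all tested rows were below 0 and their median was -0.00178. By group, 15 of 17 class I rows, 3 of 3 class II rows and 2 of 5 partners were below 0. These shares are a description, since the rows share a locus, libraries and in part sequence, and they are not independent.

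**Figure D3:**
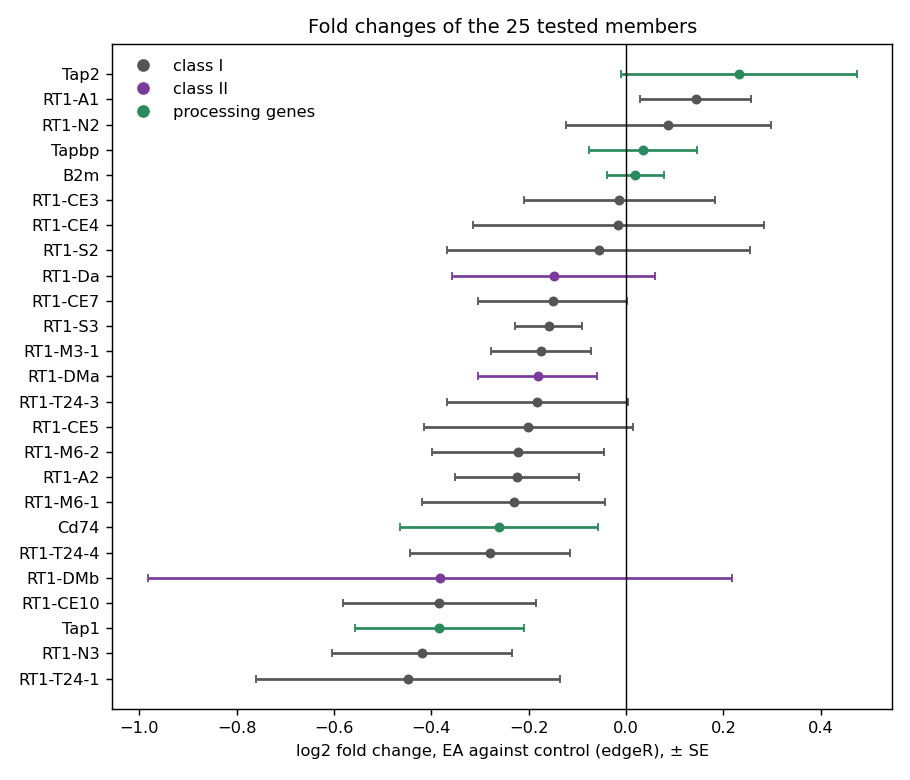
Log2 fold change of EA against control from edgeR for the 25 tested members (points), with the SE as bars, coloured by class I (grey), class II (purple) and processing genes (green). Points left of the line at 0 had the lower level in EA libraries, 20 in all, and RT1-DMb has the widest bar.

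The 3 rows at an unadjusted p under 0.05 were RT1-S3, RT1-N3 and Tap1. RT1-S3 had a log2 fold change of -0.16 (SE 0.07, adjusted p = 0.334, edgeR). RT1-N3, a class I row next to it at chr20:3167079-3170945, had 1.95, 1.68, 1.33, 1.56 and 1.65 FPKM in control libraries 1 to 5 and 0.879, 1.03, 1.36, 1.196 and 1.55 FPKM in EA libraries 1 to 5. EA 1, EA 2 and EA 4 lay below every control library, and EA 3 and EA 5 lay within the control range. Its log2 fold change was -0.42 (SE 0.18, adjusted p = 0.342, edgeR).

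Tap1, the first chain of the peptide transporter (chr20:3979035-3989669), had 1.32, 1.09, 1.104, 1.701 and 1.24 FPKM in control libraries 1 to 5 and 0.762, 1.31, 0.8702, 1.04 and 0.879 FPKM in EA libraries 1 to 5. EA 2 lay within the control range, and the other EA libraries lay below the lowest control library. Its log2 fold change was -0.38 (SE 0.17, adjusted p = 0.355, edgeR). In an exact permutation test of log2(FPKM + 0.1) over all assignments of the 10 libraries to the groups, two-sided and unadjusted for the 6 values tested so, p was 0.0635 for RT1-S3, 0.0317 for RT1-N3 and 0.0476 for Tap1, where the smallest p the design allows is 0.00794. With 1 library left out, the number of members at an unadjusted p under 0.05 ranged from 0, without control 5 or without EA 1, to 3, without EA 4, and it was 1 without control 1, control 2, control 4 or EA 5.

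The other loading genes of class I, Tap2 and Tapbp, had fold changes above 0. Tap2, the second chain of the transporter, had 0.918, 1.68, 1.94, 2.57 and 1.97 FPKM in control libraries 1 to 5 and 2.22, 2.65, 1.41, 2.44 and 1.74 FPKM in EA libraries 1 to 5, with control 1 lowest and the groups overlapping. Its log2 fold change was 0.23 (SE 0.24, adjusted p = 0.722), and it moved to 0.0718 without control 1, 0.38 without control 4 and 0.13 without EA 2. Tapbp had 3.43, 4.19, 3.28, 3.89 and 3.59 FPKM in control libraries 1 to 5 and 3.74, 3.24, 4.13, 4.08 and 3.301 FPKM in EA libraries 1 to 5, and its log2 fold change was 0.03 (SE 0.11, adjusted p = 0.926). The difference between the fold changes of Tap1 and Tap2 was not tested. Nlrc5, the activator of class I transcription, was under the level for testing, with 24, 29, 47, 51 and 66 counts in control libraries 1 to 5 and 27, 8, 12, 41 and 19 in EA libraries 1 to 5. EA 2, EA 3 and EA 5 lay below every control library, EA 1 and EA 4 within the control range, and without the filter its log2 fold change was -0.91 (SE 0.47, adjusted p = 0.4796 in edgeR).

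Promoter sequences are shown for the 3 rows with an unadjusted p under 0.05 and for B2m, the light chain of class I, since class I promoters are known to carry an interferon-stimulated response element and an enhanceosome that ends in a Y box. RefSeq (build GRCr8, whose positions are not those of Rnor_6.0) held a promoter of 300 bases, 250 before and 50 after the gene's start, for 30 of the 36 rows. The letters GAAANNGAA, searched on both strands as a form of the response element, were found in 7 of the 30, namely RT1-S2, RT1-N3, RT1-S3, B2m, Tap1, Tap2 and Tapbp, and in 9.71% of all 33469 promoters. The Y box letters CTGATTGG, on both strands, were found in 11 of the 30, 6 of 18 class I and 5 of 7 class II rows, and in 3.5% of all promoters. Both motifs were chosen after the sequences were seen. Capitals mark these letters in the promoters of RT1-S3 (chr20:2675278-2675577, plus strand), RT1-N3 (chr20:2666239-2666538, plus strand), Tap1 (chr20:4668494-4668793, minus strand) and B2m (chr3:129549080-129549379, plus strand), printed 5′ to 3′ along the gene:
RT1-S3: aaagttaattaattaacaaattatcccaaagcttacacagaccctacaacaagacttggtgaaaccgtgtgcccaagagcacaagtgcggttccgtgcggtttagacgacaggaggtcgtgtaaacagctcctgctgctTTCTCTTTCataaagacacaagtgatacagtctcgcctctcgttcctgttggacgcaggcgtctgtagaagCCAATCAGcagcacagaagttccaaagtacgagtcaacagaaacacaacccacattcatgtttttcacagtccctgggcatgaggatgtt
RT1-N3: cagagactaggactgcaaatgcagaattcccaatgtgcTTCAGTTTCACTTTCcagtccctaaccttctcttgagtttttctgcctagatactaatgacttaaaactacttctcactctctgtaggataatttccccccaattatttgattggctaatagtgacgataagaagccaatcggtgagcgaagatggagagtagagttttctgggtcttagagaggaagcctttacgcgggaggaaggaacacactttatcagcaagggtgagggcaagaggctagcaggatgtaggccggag
Tap1: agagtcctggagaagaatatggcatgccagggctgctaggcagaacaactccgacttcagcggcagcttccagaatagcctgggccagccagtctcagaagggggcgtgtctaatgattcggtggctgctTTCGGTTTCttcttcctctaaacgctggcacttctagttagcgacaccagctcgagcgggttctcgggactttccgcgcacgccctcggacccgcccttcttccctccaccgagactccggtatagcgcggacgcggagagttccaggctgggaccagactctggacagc
B2m: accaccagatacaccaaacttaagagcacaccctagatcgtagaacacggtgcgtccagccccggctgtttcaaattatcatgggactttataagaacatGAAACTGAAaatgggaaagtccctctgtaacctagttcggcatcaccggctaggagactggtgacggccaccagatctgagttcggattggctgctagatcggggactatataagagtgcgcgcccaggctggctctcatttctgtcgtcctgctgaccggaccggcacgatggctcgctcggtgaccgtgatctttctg

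The 3 members at an unadjusted p under 0.05 all held the GAAANNGAA letters, and so did B2m, Tap2, Tapbp and RT1-S2, whose log2 fold changes were 0.02, 0.23, 0.03 and -0.06 with adjusted p-values of 0.924, 0.722, 0.926 and 0.962. RT1-N3 held 2 overlapping matches. In RT1-S3, RT1-N3 and Tap1 the letters read on the strand opposite to the gene, and in B2m on the strand of the gene. A match of letters is a description of the sequence, and binding was not measured. No match of GAAANNGAA says only that these letters are not in the window, and other forms of the element were not searched. The promoters of RT1-A1, RT1-A2, RT1-CE10, RT1-CE5 and RT1-CE3 hold TTTCACTTC, similar letters that the search did not cover.

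Class II rows summed to 9.53, 11.1, 13.5, 12.6 and 10.3 FPKM in control libraries 1 to 5 and 10.1, 9.64, 6.87, 12.7 and 8.98 FPKM in EA libraries 1 to 5. The ranges overlapped, with EA 3 lowest, and the log2 ratio of the means was -0.24, less than the spread of 0.268 between libraries of a group on the log2 scale. Most of this level came from the DM chains, which load peptides and do not present them. RT1-DMa (chr20:3935529-3938915), the M alpha chain, had 4.97, 5.69, 6.46, 6.89 and 5.204 FPKM in control libraries 1 to 5 and 4.83, 4.94, 5.61, 5.75 and 4.12 FPKM in EA libraries 1 to 5, and its log2 fold change was -0.18 (SE 0.12, adjusted p = 0.547), or -0.11 without EA 5 and -0.12 without control 4. The groups overlapped, with EA 5 lowest.

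The presenting chains RT1-Da, RT1-Db1, RT1-Ba and RT1-Bb together had only 1.77, 1.898, 1.74, 2.18 and 2.06 FPKM in control libraries 1 to 5 and 1.87, 1.54, 1.17, 2.25 and 2.17 FPKM in EA libraries 1 to 5. RT1-Da, the D alpha chain (chr20:4127644-4132616), had 1.102, 1.17, 0.8595, 1.15 and 1.497 FPKM in control libraries 1 to 5 and 0.925, 0.755, 0.887, 1.01 and 1.55 FPKM in EA libraries 1 to 5. EA 5 was the highest library and EA 2 the lowest, and the log2 fold change was -0.15 (SE 0.21, adjusted p = 0.804). It was -0.33 without EA 5, -0.23 without control 3, -0.0576 without EA 2 and -0.0355 without control 5. Its partner RT1-Db1 (chr20:4087618-4097190) had 64, 49, 28, 75 and 39 counts in control libraries 1 to 5 and 62, 24, 15, 78 and 26 in EA libraries 1 to 5. RT1-Bb, the B beta chain (chr20:4039413-4049711), had 90, 127, 92, 150 and 101 counts in control libraries 1 to 5 and 83, 79, 41, 141 and 96 in EA libraries 1 to 5. In both beta chain rows EA 3 was the lowest library and the groups overlapped, and neither reached the level for testing. Without the filter, their log2 fold changes were -0.23 (SE 0.45) and -0.27 (SE 0.27), with adjusted p-values of 0.882 and 0.7197 in edgeR.

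Cd74, the invariant chain (chr18:56071478-56080849), was well above the chains it guides, with 9.32, 9.98, 7.31, 8.22 and 11.9 FPKM in control libraries 1 to 5 and 8.68, 5.04, 5.14, 9.63 and 10.01 FPKM in EA libraries 1 to 5. EA 2 and EA 3 lay below every control library, while the other EA libraries lay within the control range. Its log2 fold change was -0.26 (SE 0.20, adjusted p = 0.614, edgeR), and the exact permutation p was 0.262. The fold change was -0.14 without EA 2, -0.15 without EA 3 and -0.16 without control 5. The microglial markers, given above for all libraries, had a median log2 fold change of -0.03 over the 11 tested, and the 4 markers of perivascular macrophages summed to 4.44 to 6.37 FPKM in control and 5.12 to 8.64 FPKM in EA libraries, none of them at 0. The 5 dendritic cell markers summed to 6.66 to 9.19 FPKM in control and 5.71 to 7.42 FPKM in EA libraries, with Xcr1, Itgax and Ccr7 at 0 in some libraries. Flt3 and Zbtb46 made up most of this sum and, like Xcr1 and Ccr7, had the lower mean in EA libraries. Itgax, with at most 25 counts in a library, had 0.0133 ± 0.00982 FPKM in control and 0.0691 ± 0.0183 FPKM in EA libraries (SD, n = 5 each). Trem2, a microglial receptor, had a log2 fold change of -0.33 (SE 0.10, adjusted p = 0.223). The part of these cells in the level of Cd74 was not tested.

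Cd74 and RT1-Da varied together over the 10 libraries. On log2(FPKM + 0.1), Pearson's r was 0.81 (permutation p = 0.00616, adjusted p = 0.0616) and Spearman's rho was 0.89 (permutation p = 0.00125, adjusted p = 0.0125), each adjusted over 10 pairs of members. Without EA 2 and EA 3, the 2 libraries farthest from the median of Cd74, r was 0.78 over 8 libraries. On values centred by group, r was 0.79 (permutation p = 0.00491, adjusted p = 0.0491) and rho was 0.83 (permutation p = 0.00467, adjusted p = 0.0467). Both genes were measured in the same libraries and share their depth and tissue makeup.

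**Figure D4:**
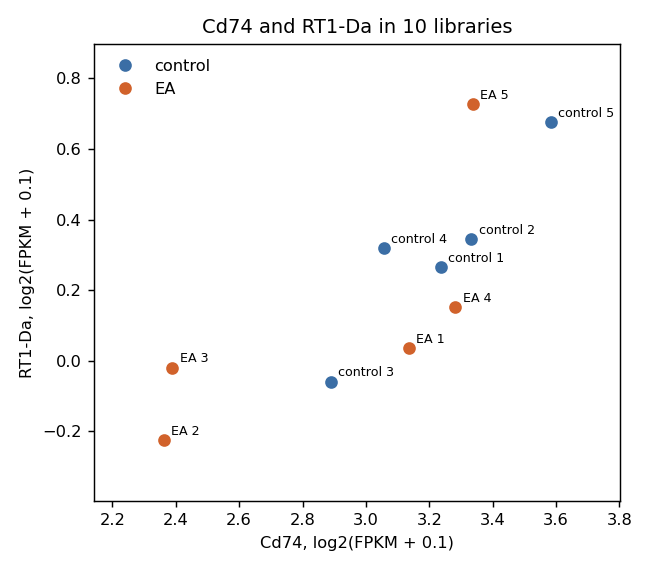
RT1-Da against Cd74, both as log2(FPKM + 0.1), with 1 point per library, in control (blue) and EA (orange). The libraries rise together, with EA 2 and EA 3 at the low end of Cd74 and control 5 and EA 5 highest in RT1-Da.

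The other 9 pairs passed the adjusted threshold on neither r nor rho. As measured, Cd74 and RT1-Da passed it on rho only. Cd74 had r = 0.60 with RT1-Bb (permutation p = 0.0694, adjusted p = 0.231) and r = 0.53 with RT1-Db1 (permutation p = 0.1202, adjusted p = 0.301). Both rested on EA 2 and EA 3, since without these libraries r was -0.10 and -0.11. With RT1-Ba, r was -0.32 over all 10 libraries (permutation p = 0.369, adjusted p = 0.614). Without EA 2 and EA 3 it was -0.53. With Ciita, the activator of class II transcription, r was -0.01 (permutation p = 0.983, adjusted p = 0.983) over values of which 4 were 0, and -0.88 without EA 2 and EA 3, so the value depended on these libraries. B2m and Tap2 had r = -0.67 (permutation p = 0.0315, adjusted p = 0.157), which was 0.00129 without control 1 and EA 3. The remaining pairs of B2m, with Tap1, Tapbp, Nlrc5 and RT1-S3, had r of 0.05, 0.24, -0.09 and -0.35, with adjusted permutation p-values of 0.983, 0.718, 0.983 and 0.614. Without control 1 and EA 3 these were 0.07, 0.35, 0.34 and 0.21. Spearman's rho of the 9 pairs lay between -0.70 for B2m and Tap2 and 0.47 for Cd74 and RT1-Bb, with adjusted permutation p-values from 0.155 to 0.919.

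Promoters of the presenting class II chains are known to carry an X box and a Y box, bound by the RFX and NF-Y factors and read by Ciita. The letters CAACNGATG, searched on both strands as a form of the X box, were found in 3 of the 30 promoters, RT1-Da, RT1-Db1 and RT1-DOb, and in 0.586% of all promoters. The promoters of RT1-Da (chr20:4515165-4515464, plus strand) and RT1-Db1 (chr20:4560113-4560412, minus strand) held both boxes, and that of RT1-Ba (chr20:4576807-4577106, plus strand), a row present in 5 of 10 libraries, held the Y box letters CTGATTGG alone. No match of CAACNGATG in RT1-Ba says only that these letters are not in this window. Capitals mark the X box and then the Y box letters:
RT1-Da: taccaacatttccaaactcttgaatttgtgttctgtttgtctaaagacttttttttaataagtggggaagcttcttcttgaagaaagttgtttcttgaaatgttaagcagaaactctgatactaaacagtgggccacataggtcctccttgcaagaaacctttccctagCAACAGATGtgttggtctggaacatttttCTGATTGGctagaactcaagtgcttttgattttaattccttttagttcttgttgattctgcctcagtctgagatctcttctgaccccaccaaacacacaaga
RT1-Db1: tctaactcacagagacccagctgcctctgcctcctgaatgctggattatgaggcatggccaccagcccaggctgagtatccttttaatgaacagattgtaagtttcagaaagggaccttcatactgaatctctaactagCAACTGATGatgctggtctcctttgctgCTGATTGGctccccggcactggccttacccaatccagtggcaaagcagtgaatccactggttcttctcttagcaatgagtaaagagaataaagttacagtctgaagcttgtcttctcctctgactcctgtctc
RT1-Ba: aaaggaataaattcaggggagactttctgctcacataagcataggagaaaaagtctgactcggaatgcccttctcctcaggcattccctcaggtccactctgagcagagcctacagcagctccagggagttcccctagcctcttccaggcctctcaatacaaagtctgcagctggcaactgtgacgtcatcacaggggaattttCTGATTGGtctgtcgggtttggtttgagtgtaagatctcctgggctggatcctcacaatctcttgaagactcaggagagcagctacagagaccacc

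Of the 36 members, 7 had at least 1 library at 0, and 4 of them, 11.1%, also had a library with 10 or more counts and are called present in some libraries only. Over all rows with a count the share was 12.3%. The 4 rows were RT1-Ba, Ciita, RT1-M5 and RT1-CE1. RT1-Ba, the B alpha chain that pairs with RT1-Bb (chr20:4066132-4070721), had 0, 0, 28, 0 and 0 counts in control libraries 1 to 5 and 22, 32, 0, 17 and 8 in EA libraries 1 to 5. It was present in 1 of 5 control libraries and in 4 of 5 EA libraries, while its partner RT1-Bb was counted in all 10. Without the filter its log2 fold change was 1.45 (SE 1.48), with an adjusted p of 0.717 in edgeR.

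Ciita (chr10:5213350-5260608) had 4, 0, 32, 12 and 0 counts in control libraries 1 to 5 and 8, 0, 0, 8 and 4 in EA libraries 1 to 5. It was present in 3 libraries of each group and highest in control 3. RT1-M5, a class I row of the M region (chr20:2038158-2040080), had 31, 17, 0, 0 and 2 counts in control libraries 1 to 5 and 10, 6, 6, 19 and 0 in EA libraries 1 to 5, and was at 0 in control 3, control 4 and EA 5. RT1-CE1, which spans its neighbours as described above, had 19, 0, 4, 14 and 0 counts in control libraries 1 to 5 and 19, 6, 0, 5 and 0 in EA libraries 1 to 5, and was at 0 in 2 libraries of each group. No library held all 4 rows at 10 or more counts.

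The other 3 rows with zeros never reached 10 counts. RT1-DOa, the O alpha chain, had 5, 0, 0, 0 and 4 counts in control libraries 1 to 5 and 4, 0, 4, 8 and 5 in EA libraries 1 to 5. RT1-DOb, the O beta chain, had 4 counts in control 1 and 4 in EA 1, and RT1-M2 had 3 counts in EA 4, with 0 elsewhere. At such counts a library at 0 does not show that the gene was absent.

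RT1-DMb, the M beta chain (chr20:3945601-3952846), was counted in every library but stood apart in EA 3. It had 293, 382, 539, 354 and 339 counts in control libraries 1 to 5 and 331, 349, 4, 458 and 274 in EA libraries 1 to 5. A row of the same description, LOC108348139, lies at chr20:5227045-5234290 in Rnor_6.0 and had 377, 451, 463, 466 and 424 counts in control libraries 1 to 5 and 358, 500, 560, 343 and 285 in EA libraries 1 to 5. In EA 3, where RT1-DMb had 4 counts, this row had its highest count. RT1-DMb took 0.709% of the counts of both rows in EA 3, against 41.1 to 57.2% in the other 9 libraries.

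The sum of both rows was 670, 833, 1002, 820 and 763 counts in control libraries 1 to 5 and 689, 849, 564, 801 and 559 in EA libraries 1 to 5. In this sum, which is not scaled to library size, EA 3 lay next to EA 5, the lowest library. EA 3 also had the fewest total counts, 47843590 against 56851003 in EA 5. The log2 fold change was -0.38 (SE 0.60, adjusted p = 0.831) for RT1-DMb alone, -0.06 without EA 3 (adjusted p = 0.928), -0.20 without control 3, -0.64 without EA 4 and -0.14 (adjusted p = 0.686) for both rows summed, all from edgeR. The class II sum without RT1-DMb had a log2 ratio of the means of -0.18 and 6.83 FPKM in EA 3, within the range of 6.33 to 8.08 FPKM of the other EA libraries.

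**Figure D5:**
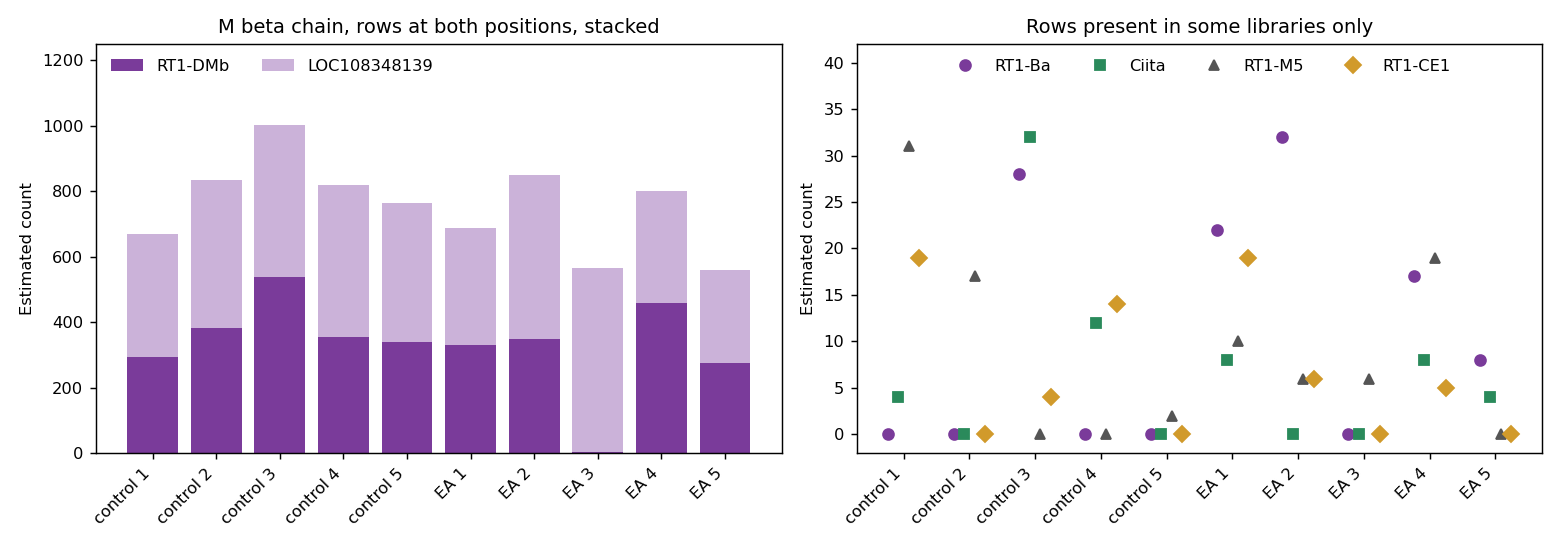
Estimated counts by library. Left, RT1-DMb (dark) and the row LOC108348139 of the same description (light), stacked, where RT1-DMb is near 0 in EA 3 and the sum of both is not; right, the 4 rows present in some libraries only.

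RT1-DMa has such a second row too, LOC108348072 at chr20:5240975-5244386. The counts of both M alpha rows differed by 0 to 9 in every library, so that they cannot be treated as separate measurements. Of the rows beside the DM genes, AC098547 (chr20:3910555-3917426) was at 0 in EA 3 and between 3966 and 4886 counts elsewhere, and LOC108348112 (chr20:5262120-5269337) was at 0 in EA 2 and between 4084 and 4965 counts elsewhere. Rows at both positions of this stretch were at or near 0 in single libraries only.

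Beyond the members, 60 of 61 listed genes that supply peptides, switch on MHC genes, encode class I-like chains, respond to interferon or costimulate T cells were found, and 54 were tested. None passed the threshold in either direction. At an unadjusted p under 0.05, 6 of the 54 were higher and 4 lower, where 6.59% of all tested rows were higher and 7.15% lower. Their median log2 fold change was 0.00305, beside -0.00178 over all tested rows. In class I assembly, the chaperones of the endoplasmic reticulum Hspa5, Pdia3, Calr and Canx had log2 fold changes of 0.21, 0.10, 0.11 and 0.10, with adjusted p-values of 0.119, 0.286, 0.314 and 0.322. Psmb10, a subunit of the immunoproteasome, had 16.5 ± 1.25 FPKM in control and 13.8 ± 0.954 FPKM in EA libraries (SD, n = 5 each) and a log2 fold change of -0.23 (adjusted p = 0.231). The other immunoproteasome subunits Psmb8 and Psmb9 had -0.17 and 0.30, with adjusted p-values of 0.784 and 0.463.

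The proteases of class II peptide supply were far more abundant than the class II chains, per length. Ctsb had 221 ± 8.27 FPKM in control and 221 ± 8.15 FPKM in EA libraries, Ctss 126 ± 6.92 and 129 ± 6.79, and Ctsd 129 ± 2.02 and 122 ± 7.58, and 0 of the 7 genes of this list were at an unadjusted p under 0.05. Calr was the gene of these lists with the highest mean, at 247 ± 16.03 FPKM in control and 262 ± 11.3 FPKM in EA libraries. Of 12 regulators, 1 was at an unadjusted p under 0.05, Rfxank, a subunit of the RFX complex that binds the X box, with a log2 fold change of -0.31 (SE 0.12, adjusted p = 0.2898). Among class I-like genes outside the RT1 names, Fcgrt, the neonatal Fc receptor that also pairs with B2m, had -0.22 (SE 0.09, adjusted p = 0.3403). Of 16 tested genes of the interferon response, Jak2 and Ifit2 had 0.18 and 0.44 and Ifnar1, a chain of the interferon receptor, had -0.13, with adjusted p-values of 0.242, 0.254 and 0.306. The 3 tested costimulation genes, Cd86, Cd40 and Cd274, had log2 fold changes of 0.01, 0.03 and 0.00125.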

How the data were processed

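Polyadenylated RNA of 5 control and 5 EA cortex samples was sequenced as stranded paired reads. The authors aligned the reads to the rat genome Rnor_6.0, assembled transcripts and computed FPKM values with StringTie and ballgown; the processing notes of the submitters list Bowtie 0.12.2, StringTie 1.3.0 and HISAT2 2.0. The authors deposited FPKM and, beside it, an estimated count per gene and sample as whole numbers, whose derivation is not given in the sources used here. A deposited FPKM of 0.0001 stands for 0 and was set to 0.

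Estimated counts were tested with edgeR 4.0.16 (quasi-likelihood, TMM scaling, R 4.3.3) over rows that reached 0.5 FPKM in 5 or more libraries, with Benjamini-Hochberg adjustment over all 15169 rows and called where the adjusted p was below 0.05 and the fold exceeded 1.2. The FPKM values entered levels, sums, exact permutation tests and correlations (100000 permutations) on log2(FPKM + 0.1). The edgeR step was tested on simulated data. Alternatives used DESeq2 1.42.0, which the study used, and limma 3.58.1, other scalings and filters, a replicate block, and left-out libraries. Total counts were 47843590 to 61707722 per library.

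The members, gene lists and comparisons were chosen with earlier results of these data known. The text names all class II rows and partners, class I rows with a mean of at least 0.5 FPKM in a group, rows present in some libraries only, members at an unadjusted p under 0.05, and pathway genes at an unadjusted p under 0.05 or among the 4 highest. Rows of other names in the MHC, and Psmb8, Psmb9 and the costimulation genes, were named after their values were seen. Promoters came from RefSeq, and 6 members had no entry there, namely RT1-M2, RT1-M4, RT1-CE7, RT1-DMb, Ciita and Nlrc5.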

Additional observations from a re-analysis of the deposited data

Results flagged for a closer look

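Among the 25 tested members, 50 groups of 5 libraries were searched for a library apart from the other 4, and 6 were found, where chance gives about 1 in 20 groups. RT1-DMb in EA 3 had 0.0394 FPKM against 2.65 to 4.58 in the other EA libraries, and the row LOC108348139 of the same description was at its highest there. B2m in control 1 had 188 FPKM against 167 to 169.7 in the other control libraries. RT1-CE5 in EA 1 had 1.901 FPKM against 3.63 to 4.44, and EA 1 was also the library with the highest count of Hspa1b, 9263, whose row lies near it; a relation of these values was not tested. RT1-A2 in control 3 had 10.5 FPKM against 7.78 to 8.38. RT1-M6-2 in control 4 had 2.58 FPKM against 1.61 to 1.77. RT1-M3-1 in EA 4 had 6.46 FPKM against 4.92 to 5.27.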

How the results depend on the processing

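Under the 19 alternatives to the test, 0 members were called higher and 0 lower, and the lowest adjusted p of any member was 0.102, for RT1-S3 without control 1. The sum of both copies of the DM genes and the class II sum without RT1-DMb were chosen after seeing the data. Over all rows, 3 were called by edgeR and 168 by DESeq2. Of 475 fold changes under an alternative, 457 kept their direction, and the 18 others belonged to 5 rows near 0. With single replicates left out, RT1-S2 ranged from -0.25 to 0.12, RT1-CE4 from -0.22 to 0.14, RT1-CE3 from -0.13 to 0.056, Tapbp from -0.017 to 0.083 and B2m from -0.012 to 0.065. RT1-S2 was 0.16 without EA 2 and EA 5, and B2m was -0.0042 by limma on log2(FPKM + 0.1) and -0.0042 on log2(FPKM + 1). The cause was not tested. Both class sums kept their direction and moved by less than the spread between libraries with only the rows counted in all libraries or with TMM scaling, and so did the class II sum without RT1-DMb.

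With any count above 0 as presence, 7 rows in place of 4 were present in some libraries only, since fewer counts were required, 19.4% of members against 27.7% of all rows with a count. With a library under 10 counts in place of one at 0, it was also 7 rows, 19.4% against 16.6%. The correlation of Cd74 and RT1-Da passed the adjusted threshold on Pearson's r only on values centred by group (0.79, permutation adjusted p = 0.0491), and on Spearman's rho both as measured and centred, while a pseudocount of 1 leaves the ranks as they are.

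Same-numbered libraries were only weakly correlated, which does not settle whether the replicate numbers pair them. The correlations of deviations between same-numbered libraries were 0.052, 0.085, 0.050, -0.0026 and 0.025, and 3 of 5 control libraries correlated best with the EA library of their own number. With the replicate number as a block, 0 members were called, the lowest adjusted p of a member was 0.301, and 0 rows in place of 3 were called over the whole table.

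The counts of RT1-Ba, RT1-Db1, Ciita and Nlrc5 were too low to show absence or small differences.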

Other observations

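The MHC on chromosome 20 also holds rows that are described as RT1 class I or II but carry another name. There were 7 with a count, 5 of them tested, and they were looked at after the members. LOC103690108, described as a class I alpha chain (chr20:3791407-3794027 in Rnor_6.0), had 615, 595, 539, 536 and 612 counts in control libraries 1 to 5 and 433, 517, 298, 404 and 429 in EA libraries 1 to 5. It was the only one of the 5 whose groups did not overlap, against 1.62% of all tested rows lower in every EA library. Its mean level was 8.74 ± 0.263 FPKM in control and 6.599 ± 0.728 FPKM in EA libraries (SD, n = 5 each), above every member heavy chain but RT1-S3 in control libraries. The log2 fold change was -0.38 (SE 0.0933), and the adjusted p of 0.174 in edgeR's quasi-likelihood test did not pass the threshold. Of the other class I rows tested, AC120486 and AABR07044364 had log2 fold changes of 0.0848 and -0.15, with adjusted p-values of 0.874 and 0.825. LOC100364500, a class I row under the level for testing, had 4, 11, 11, 94 and 59 counts in control libraries 1 to 5 and 14, 126, 0, 23 and 9 in EA libraries 1 to 5.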
